A study of Oryctolagus cuniculus with 6 samples.

Results

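The muscle-restricted microRNAs, often called myomiRs, are a small set whose genes are switched on with the muscle programme. miR-1 and miR-133a are transcribed together in skeletal and cardiac muscle, and miR-206 with its neighbour miR-133b in skeletal muscle. miR-208a, miR-208b and miR-499 lie inside genes for myosin heavy chains. Work in mouse ties miR-1 and miR-206 to muscle differentiation, and miR-206 also to the satellite cells that renew muscle and to the repair of the neuromuscular junction. miR-1 and miR-206 carry the same seed, the short stretch near the 5′ end through which a miRNA finds its targets. miR-133a and miR-133b have nearly identical mature forms, so their separate values here are uncertain, and reads that fit either row cannot be told apart.

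The muscle miRNAs were taken by name from a table of 467 mature rabbit miRNAs, as every row for miR-1, miR-133a, miR-133b, miR-206, miR-208a, miR-208b or miR-499. This gave 8 rows. The families were chosen by name, but picked out because of their measured levels in the comparison of exosome-treated with saline-treated scars, so the differences between groups below are descriptions. miR-133a has a row for each arm of its hairpin, miR-499 a row for the 5p arm, and the others a row for the 3p arm. Only ocu-miR-1-3p, ocu-miR-133a-3p and ocu-miR-206-3p reached a mean of 10 CPM, the level filter of the comparison, which 224 of the 467 rows passed. ocu-miR-206-3p did so only through the libraries saline 1 and saline 2, at 131.5 and 145.8 CPM. It was at 4.6 CPM or less in each other library. CPM, counts per 1000000, is the number of reads of a miRNA scaled to that number of miRNA reads in its library.

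The tissue was hypertrophic scar of the ear of female New Zealand White rabbits, left by full-thickness wounds on the ventral ear surface and collected at day 21. The 3 saline libraries are from scars given saline, and the 3 ADSC-Exos libraries from scars given exosomes of adipose-derived stem cells, 100 µg in 2 ml. The design text puts the applications in the first 3 days, whereas the labels give 21 days of treatment, and neither states an age, a genotype or the species of the stem cells. The design assigns 3 rabbits to each group without tying libraries to rabbits. Where libraries come from a shared rabbit, the errors and p-values below reflect the variation among samples, which may be technical.

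The libraries held between 2260645 and 5102405 miRNA reads, as recovered from the steps between low CPM values. ADSC-Exos 1 had the fewest reads and ADSC-Exos 3 the most. Rank correlations between libraries ran from 0.916 to 0.975 over the 224 miRNAs, which are not independent replicates. The fibroblast-rich miR-199a-3p was at 95046 to 148230 CPM in every library, beside which the muscle miRNAs together held 0.0612% to 0.238% of each library. In bulk tissue, fewer cells of a type and less RNA per cell cannot be told apart.

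The muscle miRNAs in these scars were mostly miR-1. ocu-miR-1-3p made up 97.7% to 98.4% of the summed muscle miRNAs in the 3 ADSC-Exos libraries and in saline 3, but 89.6% in saline 1 and 88.2% in saline 2. The difference was taken up by ocu-miR-206-3p, which held 7.27% and 10.03% of the sum in saline 1 and 2 and 0.0673% to 0.294% in the other 4 libraries. ocu-miR-133a-3p held 0.947% to 2.83%. Adaptor ligation depends on sequence, so differences in CPM between miRNAs are approximate, whereas the same miRNA can be followed across libraries.

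**Figure D1:**
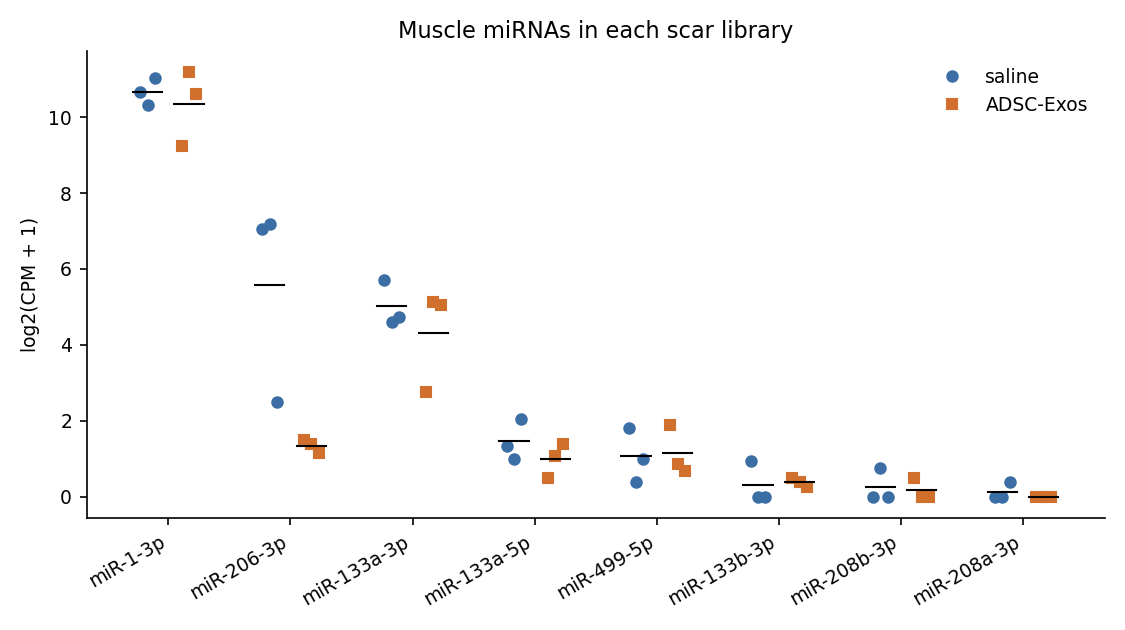
Level of each of the 8 muscle miRNA rows as log2(CPM + 1), with saline libraries as circles, ADSC-Exos libraries as squares and a bar at each group's mean of 3. miR-206-3p has 2 high saline libraries, at 131.5 and 145.8 CPM, with the third at 4.6 CPM and all ADSC-Exos libraries under 2 CPM, whereas the groups of miR-133a-3p and miR-1-3p overlap.

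The level of ocu-miR-206-3p was 131.5 CPM in saline 1, 145.8 CPM in saline 2 and 4.6 CPM in saline 3, while the ADSC-Exos libraries 1, 2 and 3 had 1.8, 1.6 and 1.2 CPM. The split of the libraries was thus 2 against 4, with saline 3 on the side of the ADSC-Exos libraries. In reads, the saline libraries had 427, 419 and 18 and the ADSC-Exos libraries 4, 6 and 6. The exact Poisson 95% interval of saline 3 was 2.73 to 7.27 CPM, against 0.482 to 4.53, 0.594 to 3.53 and 0.432 to 2.56 CPM in ADSC-Exos 1, 2 and 3. The lowest saline value lay above the highest ADSC-Exos value, yet the counting interval of saline 3 overlapped those of ADSC-Exos 1 and 2. Those of saline 1 and 2, 119.3 to 144.6 and 132.2 to 160.4 CPM, lay far above all the others. Such intervals cover counting error only.

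In abundance, ocu-miR-206-3p was the 111th and 104th most abundant miRNA in saline 1 and 2, the 256th in saline 3 and between the 298th and 318th in ADSC-Exos. Its SD of log2(CPM + 1) over the 6 libraries was 2.88, the widest of the 224 miRNAs, whose median was 0.44. Within saline alone its range was 4.71 log2 units, also the widest of the 224, against a median range of 0.67 and a next widest of 3.36 for the liver miRNA miR-122-5p. Within ADSC-Exos its range was 0.35 log2 units, the 194th of 224, at a level of a few reads. ocu-miR-1-3p, by contrast, was higher in saline 3 than in saline 1 or 2.

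The group means of ocu-miR-206-3p were 94.0 ± 77.7 CPM for saline and 1.53 ± 0.306 CPM for ADSC-Exos (SD, n = 3 per group). Its log2 fold change on the log2(CPM + 1) scale was -4.24 ± 1.10 (SE), and -4.80 with a pseudocount of 0.1 CPM. The 95% interval of the former, from -6.72 to -1.77, is not adjusted for the number of miRNAs or for the choice of this one. In the limma fit over 224 miRNAs with Benjamini-Hochberg adjustment its adjusted p was 0.804. Leaving out saline 3 gave a log2 fold change of -5.79 and an adjusted p of 0.000445 in limma. That setting keeps only saline 1 and 2, through which this miRNA passed the level filter. The small p thus restates the split within saline, and nothing is read from it. Without saline 1 or 2 the log2 fold change was -3.51 or -3.43 and the adjusted p in limma 0.885 or 0.998. The range of its adjusted p over all alternatives was 0.000445 to 0.998, and its log2 fold change was negative in 14 of 14 settings. Because its group ranges did not overlap, leaving out a library or changing the pseudocount could not turn that sign.

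For ocu-miR-1-3p, saline 1, 2 and 3 had 1621.3, 1282.6 and 2100.2 CPM, and ADSC-Exos 1, 2 and 3 had 600.7, 2338 and 1554.6 CPM. The highest and the lowest of the 6 libraries were both ADSC-Exos, and the saline libraries lay between them. Each library held from 1358 to 8662 of its reads, and the counting interval of ADSC-Exos 1, 569 to 634 CPM, did not reach that of any other library. It was the 39th to 47th most abundant miRNA in 5 libraries and the 62nd in ADSC-Exos 1. Its means were 1668 ± 411 CPM for saline and 1498 ± 870.0 CPM for ADSC-Exos (SD, n = 3 per group), and the log2 fold change was -0.33 ± 0.48 (SE), turning to 0.22 without ADSC-Exos 1.

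ocu-miR-133a-3p, whose known target in mouse muscle is serum response factor, had 51.1, 23.3 and 25.6 CPM in saline 1, 2 and 3, against 5.8, 34 and 32.3 CPM for ADSC-Exos 1, 2 and 3. ADSC-Exos 1 was again the lowest library, with 13 reads and a counting interval of 3.06 to 9.83 CPM, and the remaining 5 libraries did not separate by group. Its means were 33.3 ± 15.4 CPM for saline and 24.03 ± 15.8 CPM for ADSC-Exos (SD, n = 3 per group). The log2 fold change was -0.70 ± 0.65 (SE), turning to 0.08 without ADSC-Exos 1. The spread of this miRNA, an SD of 1.01 log2 units over the libraries, was the 14th widest of the 224, and that of ocu-miR-1-3p, 0.70, the 41st.

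Over the whole table, 0 of 224 miRNAs (0.0%) had an adjusted p under 0.05 in limma, and 0 of the 3 muscle miRNAs. An unadjusted p under 0.05 was found for 8 miRNAs, and limma-voom on the recovered reads likewise gave 0 adjusted and 8 unadjusted. All 3 muscle miRNAs had a negative log2 fold change, with a median of -0.70, against a median of -0.08 over the 224, of which 136 were negative. The group ranges did not overlap for 1 of the 3, ocu-miR-206-3p, and for 8 of 224 miRNAs (3.57%) in the same direction. Nothing is read from these counts, since the members were picked with this comparison known. In addition, ocu-miR-206-3p passed the level filter only through saline 1 and 2. Without a level filter, 6 of the 8 muscle rows had a negative log2 fold change and 2 a positive value, with a median of -0.23, against -0.06 over all 467.

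**Figure D2:**
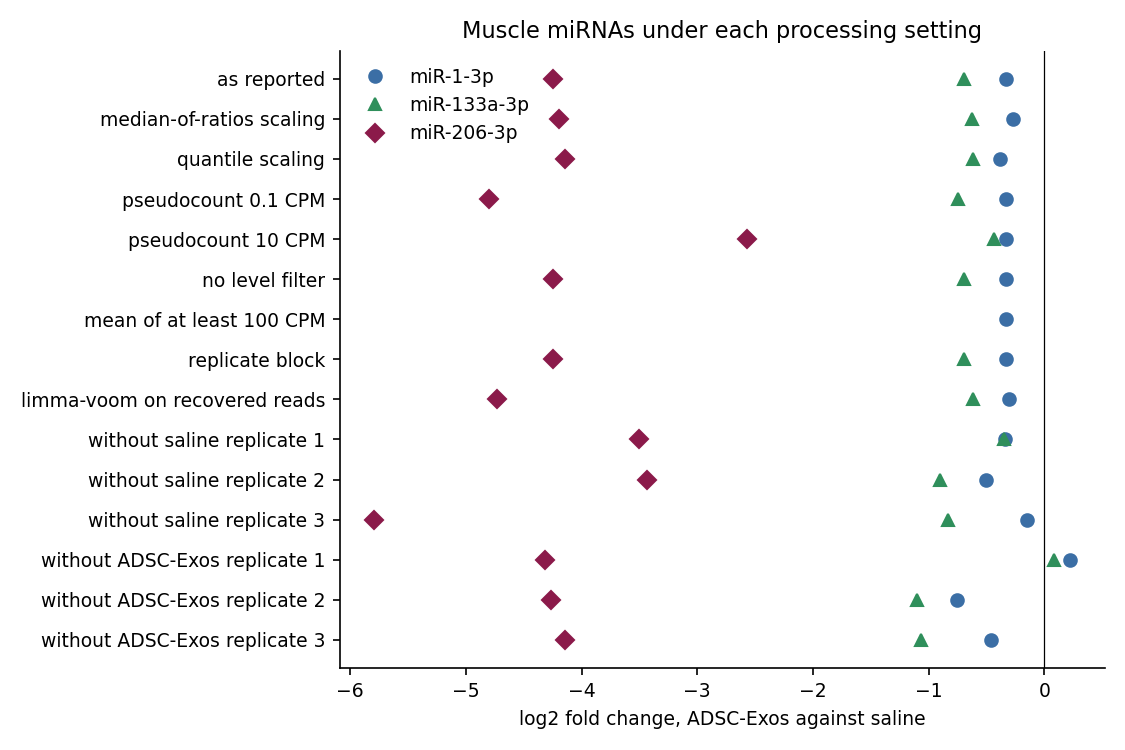
Log2 fold change of miR-1-3p (circles), miR-133a-3p (triangles) and miR-206-3p (diamonds) in ADSC-Exos against saline, on the horizontal axis, as reported and under each alternative setting. miR-206-3p runs from -5.79 without saline 3 to -2.57 with a pseudocount of 10 CPM, and miR-1-3p and miR-133a-3p cross 0 without ADSC-Exos 1, at 0.22 and 0.08. miR-133a-3p and miR-206-3p are not tested at a mean of at least 100 CPM.

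The remaining rows were near the limit of detection. ocu-miR-133a-5p, the minor arm of the miR-133a hairpin, had 33 reads in all 6 libraries, at 1.5, 1 and 3.1 CPM for saline 1, 2 and 3 against 0.4, 1.1 and 1.6 CPM for the ADSC-Exos libraries. It amounted to 2.94% to 12.1% of the 3p arm. ocu-miR-499-5p had 25 reads in all, at 2.5, 0.3 and 1 CPM for saline against 2.7, 0.8 and 0.6 CPM for ADSC-Exos, so its groups overlapped throughout. In the fit with no level filter, their log2 fold changes were -0.47 ± 0.39 and 0.08 ± 0.46 (SE), and the adjusted p in limma was 0.995 for each.

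ocu-miR-133b-3p had 6 reads in all, with 3 in saline 1, 1 in each ADSC-Exos library and 0 in saline 2 and 3, which allows up to 1.04 and 0.767 CPM there. Its fold change without a level filter was 0.07 ± 0.28 (SE) on the log2 scale. ocu-miR-208b-3p had 3 reads, 2 in saline 2 and 1 in ADSC-Exos 1. ocu-miR-208a-3p, whose gene is inside the cardiac myosin gene MYH6, had 1 read, in saline 3. Their log2 fold changes of -0.09 ± 0.26 and -0.13 ± 0.17 (SE) rest on these reads, and no difference was detectable at this depth. Libraries at 0 for either miRNA allow levels of up to 0.588 to 1.33 CPM.

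The genomic neighbours were read from the RefSeq genes of assembly mOryCun1.1, for names only, since no source used here gives the build behind the table. There MIR206 and MIR133B are neighbours with 0 genes between them, and so are MIR1-2 and MIR133A, inside the span of MIB1. MIR208A is inside the span of MYH6, MIR208B inside that of MYH7 and MIR499 inside that of MYH7B. The neighbours did not have like read numbers. In saline 1, ocu-miR-206-3p had 427 reads and ocu-miR-133b-3p had 3, and in saline 2 they had 419 and 0. ocu-miR-133a-3p, the near-identical form from the other cluster, had 166 and 67 reads in these libraries, and no source used here says how reads that match both forms were assigned.

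Ratios within a library do not depend on how libraries were scaled to each other. ocu-miR-206-3p amounted to 8.11%, 11.4% and 0.219% of ocu-miR-1-3p in saline 1, 2 and 3, and to 0.300%, 0.0684% and 0.0772% in ADSC-Exos 1, 2 and 3. Relative to miR-1, then, saline 3 lay inside the ADSC-Exos range and the groups overlapped. The ratio differed 166-fold between its highest and lowest library. The ADSC-Exos ratios rest on 4, 6 and 6 reads of ocu-miR-206-3p and that of saline 3 on 18. Their order and the fold are thus approximate. ocu-miR-133a-3p amounted to 3.15%, 1.82% and 1.22% of ocu-miR-1-3p in saline and to 0.966%, 1.45% and 2.08% in ADSC-Exos, a 3.26-fold spread with overlapping groups. Against ocu-miR-133a-3p, ocu-miR-206-3p stood at 257% and 626% in saline 1 and 2 and at 3.72% to 31.03% in the other 4 libraries.

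**Figure D3:**
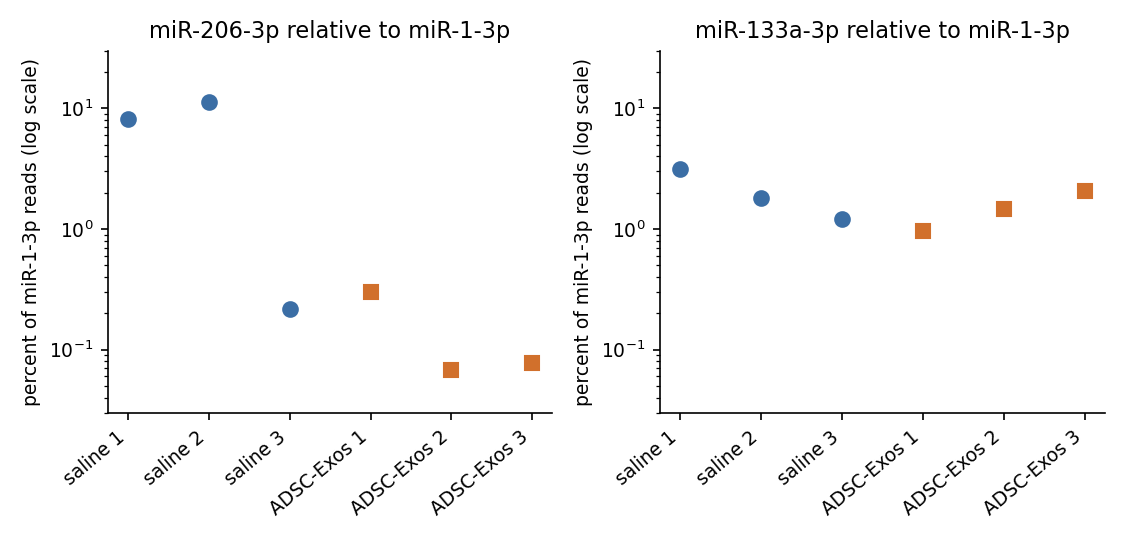
CPM of miR-206-3p (left) and miR-133a-3p (right) as a percentage of miR-1-3p in the same library, on a log axis, with saline as circles and ADSC-Exos as squares. On the left, saline 3 at 0.219% lies between the ADSC-Exos libraries at 0.0684% to 0.300%, far from saline 1 and 2. On the right, all 6 libraries lie between 0.966% and 3.15%.

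The likeness of each muscle miRNA to the other 223 miRNAs was measured as the root mean square difference, over the 6 libraries, between profiles of log2(CPM + 1) centred on their own means. A value of 0 would mean identical profiles. For ocu-miR-1-3p the nearest were miR-145-5p, miR-143-5p and miR-145-3p, at 0.29, 0.30 and 0.30 log2 units, against a median of 0.77 over the 223. For ocu-miR-133a-3p the nearest was miR-143-3p at 0.24, followed by miR-125b-3p at 0.48 and ocu-miR-1-3p at 0.51, against a median of 1.03. The smallest of many distances lies below their median in any case. Over all tested miRNAs the median distance to the nearest other was 0.14. Only 19 miRNAs had a nearest other farther away than ocu-miR-1-3p had, and 44 than ocu-miR-133a-3p had. Both thus lay farther from their nearest miRNA than most miRNAs did. miR-143 and miR-145 come from a single cluster that is best known from smooth muscle, and their 4 arms were the list of smooth muscle markers used here.

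All 4 smooth muscle arms had their lowest level in ADSC-Exos 1, as did miR-1 and miR-133a. The dip was not limited to these miRNAs. miR-30a-5p and miR-455-5p, next in likeness to ocu-miR-1-3p at 0.31 and 0.35 log2 units, were also lowest there, at 2163.5 and 81.4 CPM. With a pseudocount of 10 CPM, miR-30a-5p replaced miR-145-3p among the 3 nearest to ocu-miR-1-3p. The 3 saline libraries had 1242.8, 1084.9 and 1737.5 CPM of miR-145-5p, and ADSC-Exos 1, 2 and 3 had 739.6, 1552.6 and 1615.3 CPM. For miR-143-3p these were 68829.7, 36862.5 and 40341.3 CPM, then 13577.1, 47270.6 and 65099.9 CPM. The ratio of ocu-miR-1-3p to miR-145-5p stayed between 81.2% and 151%, a 1.85-fold spread, while ocu-miR-1-3p itself spread 3.89-fold. The ratio of ocu-miR-133a-3p to miR-143-3p stayed between 0.0427% and 0.0742%, a 1.74-fold spread, while ocu-miR-133a-3p itself spread 8.81-fold. These ratios use partners picked for their likeness, so their narrow range is a description.

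**Figure D4:**
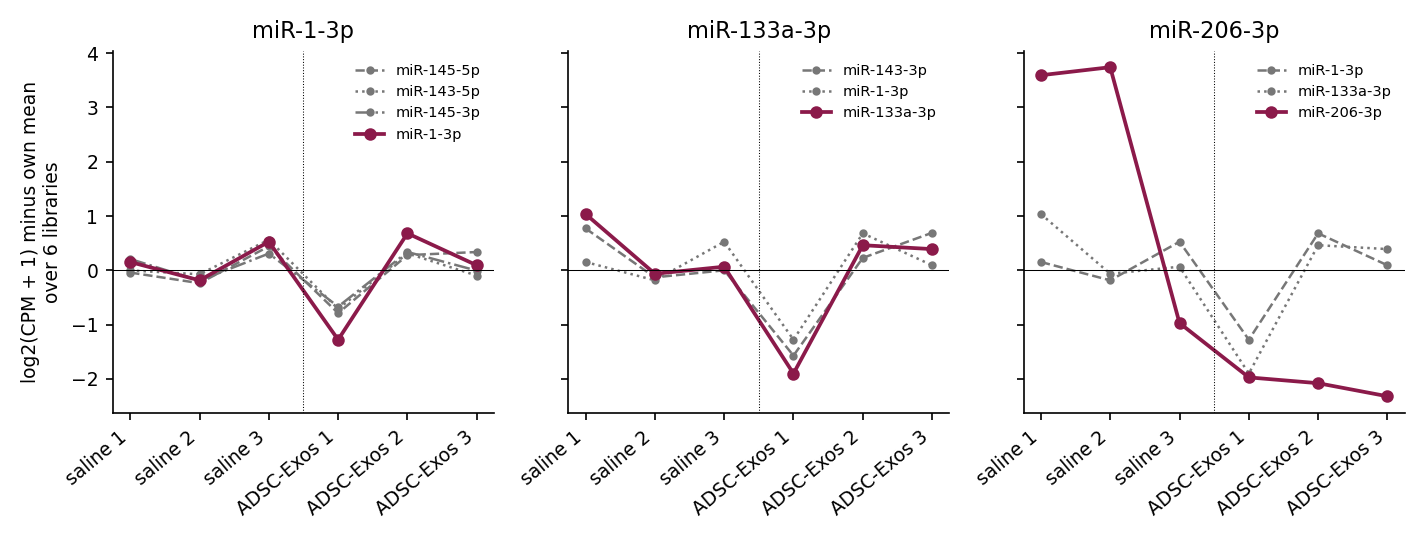
Profile of each tested muscle miRNA (thick line) over the 6 libraries, as log2(CPM + 1) minus its own mean, with other miRNAs as grey lines and a dotted line between saline and ADSC-Exos. miR-1-3p and miR-133a-3p dip in ADSC-Exos 1 to -1.28 and -1.90 together with arms of miR-143 and miR-145, while miR-206-3p is at 3.59 and 3.74 in saline 1 and 2 and at -0.97 or below elsewhere.

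The summed level of the 4 smooth muscle arms was 38229 to 70397 CPM in saline and 14505 to 67009 CPM in ADSC-Exos, and 0 of the 4 arms was at 0 in all libraries. The log2 fold changes of all 4 arms were negative, with a median of -0.27, and 0 of 4 passed in limma (smallest adjusted p = 0.996). Without ADSC-Exos 1, a setting chosen after seeing the data, miR-145-3p, miR-143-5p and miR-145-5p were the 1st, 3rd and 9th nearest of 223 to ocu-miR-1-3p, but miR-143-3p went from the 11th to the 125th. For ocu-miR-133a-3p, miR-143-3p was then the 5th nearest, while miR-145-3p, miR-145-5p and miR-143-5p went from the 12th, 14th and 19th to the 44th, 93rd and 106th. The distances themselves did not grow alike. Those of miR-145-3p, miR-145-5p and miR-143-5p to ocu-miR-133a-3p fell from 0.64, 0.66 and 0.71 to 0.35, 0.47 and 0.51 log2 units. That of miR-143-3p to ocu-miR-1-3p went from 0.47 to 0.49. In ADSC-Exos 1, ocu-miR-133a-3p lay farthest from its own mean, at -1.90 log2 units. A smaller distance without that library therefore need not be a closer likeness. The order of part of the arms among the 223 thus rested on that library. Likewise, ocu-miR-1-3p was the 3rd nearest to ocu-miR-133a-3p over all libraries, at 0.51, and the 88th without ADSC-Exos 1, at 0.46. What part smooth muscle in the sampled scars has in these levels was not tested.

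The profiles were centred but not scaled, so a miRNA of wide spread lies far from all others by this measure. For ocu-miR-206-3p, with the widest SD of the 224, the distances restate that spread and do not in themselves show a different pattern. Its nearest miRNAs were miR-181c-3p, miR-423-3p and the red cell miRNA miR-451-5p, at 2.08, 2.16 and 2.18 log2 units. Over all 224 miRNAs the median distance to the nearest other was 0.14, and 2.08 was the largest. ocu-miR-206-3p was the last of 223 in likeness to ocu-miR-1-3p and also to ocu-miR-133a-3p, at 2.69 and 2.45 log2 units over all 6 libraries, and was last for both without ADSC-Exos 1 too. From its own side, ocu-miR-133a-3p was the 38th and ocu-miR-1-3p the 137th nearest of 223. The smooth muscle arms were the 69th to 156th nearest to it. These orders come from the same 6 libraries and a shared scaling, and they describe those libraries.

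**Figure D5:**
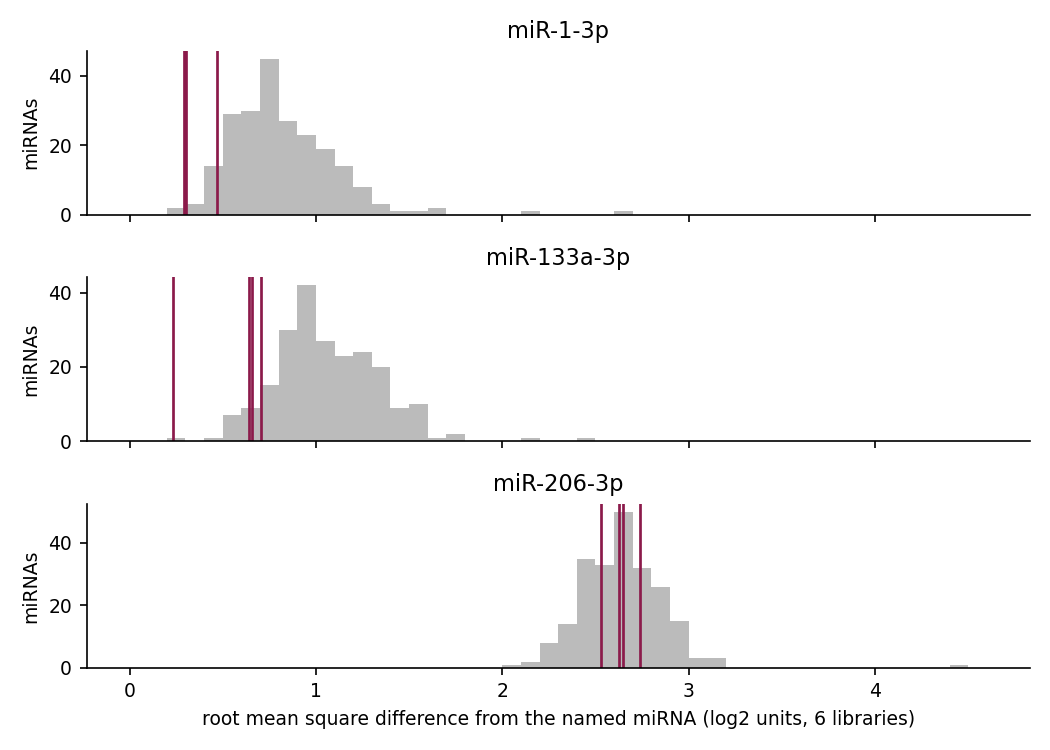
Number of miRNAs at each root mean square difference, in log2 units on the horizontal axis, from miR-1-3p (top), miR-133a-3p (middle) and miR-206-3p (bottom), with the 4 arms of miR-143 and miR-145 as vertical lines. For miR-1-3p and miR-133a-3p the nearest lines, at 0.29 and 0.24, are the smallest of their 223 distances. Both exceed the median distance to the nearest other over all tested miRNAs, 0.14. For miR-206-3p all 223 miRNAs lie at 2.08 or more, which goes with its wide spread.

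Other miRNAs with reported roles in muscle cells, none of them restricted to muscle, lay on both sides of 0. The list held 30 names, of which 23 had a row, and 35 of their 49 rows passed the level filter. Of these 35, 17 had a positive and 18 a negative log2 fold change, with a median of -0.0048, against -0.08 over all 224, and 0 of 35 passed in limma. Farthest from 0 among the 35 was miR-486-5p, at -1.39 ± 0.51 (SE), a row that the red blood cell list holds too. With all 6 libraries its limma test gave 0.861 after adjustment. It was called only when ADSC-Exos 1 was left out, at 0.0218. The 4 most abundant of the list were miR-125b-5p, miR-27b-3p, miR-26a-5p and miR-29a-3p. miR-125b-5p, reported to slow muscle regeneration in mouse, had 48309, 68069 and 85151 CPM in the saline libraries against 66026, 81450 and 13018 CPM in ADSC-Exos 1, 2 and 3, so that ADSC-Exos 3 stood below the other 5. miR-27b-3p, which represses the satellite cell factor Pax3 in mouse, had a log2 fold change of 0.18 ± 0.27 (SE), and miR-26a-5p of 0.12 ± 0.32 (SE). That of miR-29a-3p was 0.55 ± 0.33 (SE), and the adjusted p in limma was 0.996 for each of the 4.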

How the data were processed

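The series' design text states that small RNA libraries of the scars, here 3 saline and 3 ADSC-Exos, were read on an Illumina NovaSeq 6000. The authors deposited CPM values for 467 miRNAs, rounded to 1 decimal (1 value has more), in which each library sums to 1000000 within rounding, and its 6 columns were matched to samples by the code in the labels. The tools named in the submitters' processing notes are STAR 2.7.6a, HTSeq 2.0.3, DESeq2 1.30.1, FastQC 1.0.0 and Trimmomatic 0.40, without role. No source used here gives the build, the annotation, the use of strand or of molecular identifiers. Scaling to a library total makes each miRNA relative to the others.

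Library totals were recovered as the total for which the values are whole reads within 0.05 CPM. All but 4 of the values above 0 were whole on that basis, and ADSC-Exos 3 had 2 tied totals. By library, 1 read equals 0.196 to 0.442 CPM, and a count of 0 allows up to 3 reads, or 0.588 to 1.33 CPM.

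The comparison was limma 3.58.1 (trend) in R 4.3.3 on log2(CPM + 1), two-sided, where a miRNA averaged 10 CPM or more, with group as the only term and Benjamini-Hochberg adjustment over the 224 tested. The fold change understates the change of low miRNAs. Rows under the filter take theirs from a fit without it. The fit and the recovery of totals were tested on simulated data.

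The members, lists and named miRNAs were chosen with earlier results of these data known. Named were all muscle rows, the 3 nearest miRNAs to each tested muscle miRNA, the 4 most abundant of the list of miRNAs with roles in muscle cells, and the most abundant of each list of cell type markers. Alternatives were other scalings, pseudocounts and filters, the replicate number as a block, limma-voom on the recovered reads, and each library left out. Sequences are not printed.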

Additional observations from a re-analysis of the deposited data

How the results depend on the processing

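The log2 fold change of ocu-miR-206-3p kept its direction in 13 of 13 alternatives. Its lowest saline value, 4.6 CPM, lay above its highest ADSC-Exos value, 1.8 CPM. Leave-outs, pseudocounts and filters thus could not turn the direction, and the count is no support. This miRNA was called only without saline 3 (adjusted p = 0.000445, limma), which leaves the saline libraries where it is high, saline 1 and 2. Its log2 fold change ran from -2.57 with a pseudocount of 10 CPM to -5.79 without saline 3. Those of ocu-miR-1-3p and ocu-miR-133a-3p turned to 0.22 and 0.080 without ADSC-Exos 1 and stayed negative otherwise, at -0.76 to -0.15 and -1.10 to -0.35. The count of called miRNAs was 0 in 12 of 14 alternatives and ran from 0 to 4 over the leave-outs, with 1 without saline 3 and 4 without ADSC-Exos 1, where no muscle miRNA was called. The median of the muscle miRNAs ran from -1.10 to 0.080. The median of miRNAs with roles in muscle cells was 0.058 under median-of-ratios and 0.085 under quantile scaling, -0.065 with no filter, and -0.071 to 0.023 over the leave-outs. The median of all 224 miRNAs moved alike under these scalings, by 0.063 and 0.078, to -0.019 and -0.0043. Of the 3 nearest miRNAs, ocu-miR-133a-3p kept 1 with a pseudocount of 10 CPM (miR-143-3p) and 0 without ADSC-Exos 1, and ocu-miR-206-3p kept 1 without ADSC-Exos 1, a setting chosen after seeing the data. Leaving out a library moved the mean ratio of ocu-miR-206-3p to ocu-miR-1-3p to between 4.16% and 9.74% in saline and, without ADSC-Exos 1, to 0.0728% in ADSC-Exos. Its mean ratio to ocu-miR-133a-3p fell to 138% in saline without saline 2 and to 4.21% in ADSC-Exos without ADSC-Exos 1. Apart from the shift that all miRNAs share under another scaling, the cause of these moves was not tested.

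The labels do not say whether the replicate numbers pair the libraries. Correlations of same-numbered deviations from the group means were -0.114, -0.018 and -0.127 over 224 miRNAs. With 3 libraries per group and miRNAs that are not independent, these cannot decide whether the libraries are paired. With the replicate number as a block, the count of calls stayed at 0, the log2 fold change of ocu-miR-206-3p stayed at -4.24 and its adjusted p in limma was 0.127. The planned edgeR fit to the recovered reads was not run.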

Other observations

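Beside the muscle miRNAs, the other marker lists gave these levels, with no member passing in limma over 224 miRNAs and all 6 libraries (smallest adjusted p = 0.804). The red blood cell list of 5 rows, led by miR-451-5p, summed to 443 to 853 CPM in saline and 109 to 472 CPM in ADSC-Exos. All 4 of its tested rows had a negative log2 fold change, with a median of -1.49, and all 4 had an unadjusted p under 0.05, of 8 such miRNAs in the table. The sum of 472 CPM was that of ADSC-Exos 1, against 154 and 109 CPM in ADSC-Exos 2 and 3. Without ADSC-Exos 1, 4 of 223 miRNAs were called in limma, and 3 of the 4 were in this list. They were miR-486-5p and miR-144-3p at an adjusted p of 0.0218 each, and miR-451-5p at 0.00659. miR-486-5p is also in the list of miRNAs with roles in muscle cells. The tested rows of the red blood cell list include both arms of the miR-144 hairpin, so they are not independent. The cartilage list of 4 rows, led by miR-140-3p, summed to 2110 to 4652 CPM in saline and 1461 to 7602 CPM in ADSC-Exos, with ADSC-Exos 1 the lowest library, as for ocu-miR-1-3p. The epithelial list of 6 rows, led by miR-141-3p, summed to 8140 to 11335 CPM and 7913 to 12297 CPM. Leukocyte miRNAs, 9 rows led by miR-146a-5p, summed to 7961 to 10091 CPM and 6664 to 10115 CPM, and neuronal miRNAs, 4 rows led by miR-218-5p, to 931 to 1241 CPM and 543 to 1329 CPM. The fibroblast list of 4 rows, led by miR-199a-3p, summed to 117972 to 143972 CPM and 113480 to 164725 CPM. The liver miRNA miR-122-5p was highest in saline 3, at 38.1 CPM, against 2.8 to 10.3 CPM in the other 5 libraries. No row of these lists was at 0 in all libraries. Their part in the levels of the muscle miRNAs was not tested.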
